A study of Caenorhabditis elegans with 4 samples.

Results

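Chromosome IV of Caenorhabditis elegans carries 2 large regions dense in genes for piRNAs, the 21U-RNAs of the worm, and the SWD-3 ChIP-seq peaks that lie in them are described here. A peak was counted as a member when its midpoint lay from 4.5 to 7.0 Mb (the left region) or from base 13500000 to 17200000 (the right region) of IV in WormBase WS220 coordinates. The list deposited for the whole series held 9630 peaks, of which 431 were members, 134 in the left and 297 in the right region. They made up 30.3% of the 1423 series peaks on IV, and the regions 35.4% of its length. The ChIP replicate lists held 144 members of 2698 peaks in replicate 1 and 222 of 4580 in replicate 2. The part of IV between the regions, with 381 series peaks, served as the comparison.

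All libraries came from wild-type N2 embryos of mixed stages and mixed sex, fixed with formaldehyde, and no mutant or untreated group was part of the design. A polyclonal rabbit antibody raised against SWD-3 was used for 2 ChIP libraries, and 2 input DNA libraries accompanied them. Input values are not analysed here, so SWD-3 binding and regions that give peaks whatever the antibody cannot be told apart. The labels do not say whether replicates came from separate embryo preparations. Whole embryos mix many cell types, and the few germline precursor cells cannot be told apart from the rest.

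As background, piRNAs of C. elegans are short germline RNAs bound by the Piwi protein PRG-1, and most are transcribed by RNA polymerase II from their own small promoters within these regions, among ordinary genes and in their introns. In the RefSeq gene table of assembly WBcel235, 14714 of 15363 piRNA genes (95.8%) are on IV, and each of the other chromosomes has between 78 and 202. SWD-3 belongs to the WDR5 family of WD40-repeat proteins, which form part of the complexes that methylate histone H3 at lysine 4, a mark of active promoters. The peak lists and the gene table are of different builds, so no peak was assigned to a gene or a piRNA, and peaks are named by position.

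In no list could the left region be told from the middle of the chromosome by counting error. The right region was denser than the middle in the series list and sparser in replicate 2. In replicate 1 the right region could not be told from the middle either. In the series list the left region held 53.6 peaks per Mb and the part between the regions 58.6, a log2 ratio of -0.13 (95% exact binomial interval of the count split -0.42 to 0.16, which covers counting error only, as do all intervals given here). The right region held 80.3 series peaks per Mb, against 58.6 between the regions (log2 ratio 0.45, interval 0.23 to 0.68). Both regions and the part between lay below the 96.1 peaks per Mb of the whole series list. No test was run over regions or bins, and with 2 ChIP lists none over samples could pass a threshold.

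The replicate lists did not show the higher density of the right region. Replicate 1 had 22.4 peaks per Mb in the left region and 23.8 in the right, against 27.2 between them. The log2 ratios were -0.28 (interval -0.74 to 0.16) for the left and -0.20 (-0.58 to 0.18) for the right, so at this number of peaks neither could be told from an even density. Replicate 2 had 46.4 peaks per Mb in the left region and 28.6 in the right, against 50.8 between them. Its log2 ratio was -0.13 (-0.45 to 0.18) for the left region and -0.83 (-1.16 to -0.51) for the right. The right region thus had the lowest density of the 3 stretches in replicate 2 and the highest in the series list. The source columns name MACS in the replicate lists and MACS v2 in the series list. The lowest deposited score was 50.03 in replicate 1, 50.01 in replicate 2 and 1.3 in the series list. The lists may therefore differ in calling and cut-off. What this adds to the differences between lists, here and below, was not tested.

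**Figure D1:**
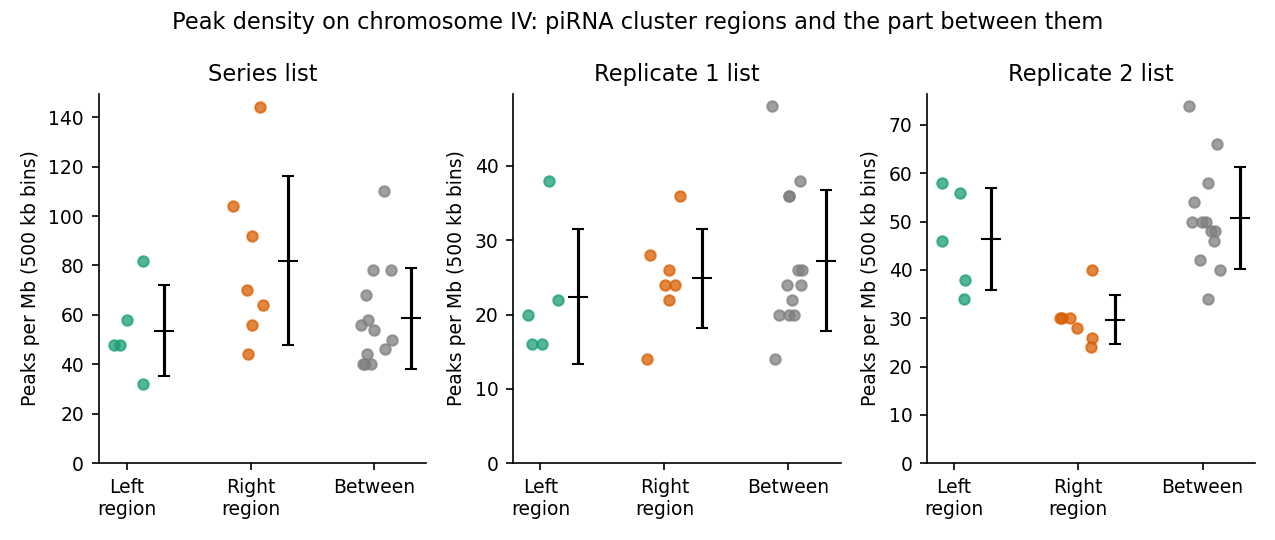
Peaks per Mb on the y axis in full 500 kb bins of the left region (5 bins), the right region (7 bins) and the part between (13 bins), one panel for each list; points are bins, and the bar is the mean with its SD. In the right region the series bins reach 144 peaks per Mb, while all its replicate 2 bins lie between 24 and 40.

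Bins of 500 kb showed how uneven each stretch was. The 5 bins of the left region ranged from 32 to 82 series peaks per Mb, with a mean of 53.6 ± 18.4 (SD over bins). The 7 full bins of the right region ranged from 44 to 144, with a mean of 82.0 ± 34.2, and the 13 bins between the regions from 40 to 110, with a mean of 58.6 ± 20.4. The ranges overlapped. The difference between the right region and the middle was smaller than the SD over bins of the right region but larger than that of the middle. In replicate 2 the right-region bins had 29.7 ± 5.09 peaks per Mb, from 24 to 40, and those between the regions 50.8 ± 10.6, from 34 to 74. Here the 2 sets of bins overlapped only between 34 and 40, and the difference was larger than the SD of either. In replicate 1 the bins had 24.9 ± 6.62 and 27.2 ± 9.51 peaks per Mb in the right region and between the regions, a difference well within the spread.

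Series peaks were unevenly spread within the right region. Its 3 densest bins adjoin at chrIV:15500001-17000000, a stretch chosen from these values, and held 170 series peaks (113 per Mb). The remaining 2.2 Mb held 127 (57.7 per Mb), a value that leaving out the densest bins lowers by construction. The densest bin, from 16.0 to 16.5 Mb, had 72 series peaks covering 15.6% of its length. The same bin had 18 peaks in replicate 1, covering 1.44%, and 15 in replicate 2, covering 1.73%. The least dense bin of the right region was its first, chrIV:13500001-14000000, with 22 series peaks. In the left region the densest bin lay from 6.0 to 6.5 Mb with 41 series peaks, and the least dense from 5.0 to 5.5 Mb with 16.

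In the series list, peaks of the right region were wider and closer together than those of the left region and the part between. Its median peak width was 350 bp (95% order-statistic interval 321 to 399), compared with 267.5 bp (239 to 304) in the left region and 261 bp (248 to 275) between the regions. The upper quartile showed the difference more plainly, at 690 bp in the right region, 401 bp in the left and 341 bp between. Peaks wider than 1500 bp numbered 27 of 297 in the right region (9.09%, 95% Wilson interval 6.32 to 12.9), a share near the 9.28% of the whole series list. There were 4 of 134 in the left region (2.99%, interval 1.17 to 7.42) and 7 of 381 between the regions (1.84%, interval 0.89 to 3.74). These wide peaks held 40.6% of the summed peak width of the right region, 22.1% of that of the left and 13.47% of that between. Over the whole series list, peaks wider than 1500 bp held 51.3%, so all 3 stretches lay below the list. Series peaks covered 5.29% of the right region, 2.15% of the left and 2.03% of the middle, against 6.87% over all nuclear chromosomes. The median width of the whole list was 319 bp.

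In neither replicate list was the median width highest by more than the intervals in the right region. In replicate 1 the median was 398 bp (300 to 480) in the left region, 327 bp (285 to 423) in the right and 447 bp (419 to 513) between. Replicate 1 peaks of the right region were narrower at the median than those between, with intervals that just overlapped. In replicate 2 the medians were 506 bp (435 to 553), 513.5 bp (449 to 572) and 516.5 bp (494 to 551) in the same order. In replicate 1, 2 of 88 right-region peaks were wider than 1500 bp (2.27%), near the 2.56% of that whole list. In replicate 2, 2 of 106 were (1.89%), near the 2.21% of that list.

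Midpoints of neighbouring series peaks were 2709 bp apart at the median in the right region (interval 1844 to 3820.5), against 9405.5 bp (7099 to 11637.5) between the regions. The left region resembled the middle, at 10027 bp (6359.5 to 13112.5). Of the right-region spacings, 45.6% were under 2000 bp, compared with 29.3% in the left and 25.5% between. Over the whole list 41.5% were, with a median spacing of 3004.75 bp, so the right region was near the list and the other stretches were sparser. The order was not seen in the replicates. In replicate 2 the median spacing was 11324 bp (7988 to 17336) in the left region, 17756.5 bp (9158 to 32366) in the right and 12442 bp (10595 to 15860.5) between, and in replicate 1 it was 31440 bp (17231.5 to 47766.5), 22333 bp (11611 to 36248.5) and 19511 bp (12610.5 to 26622).

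**Figure D2:**
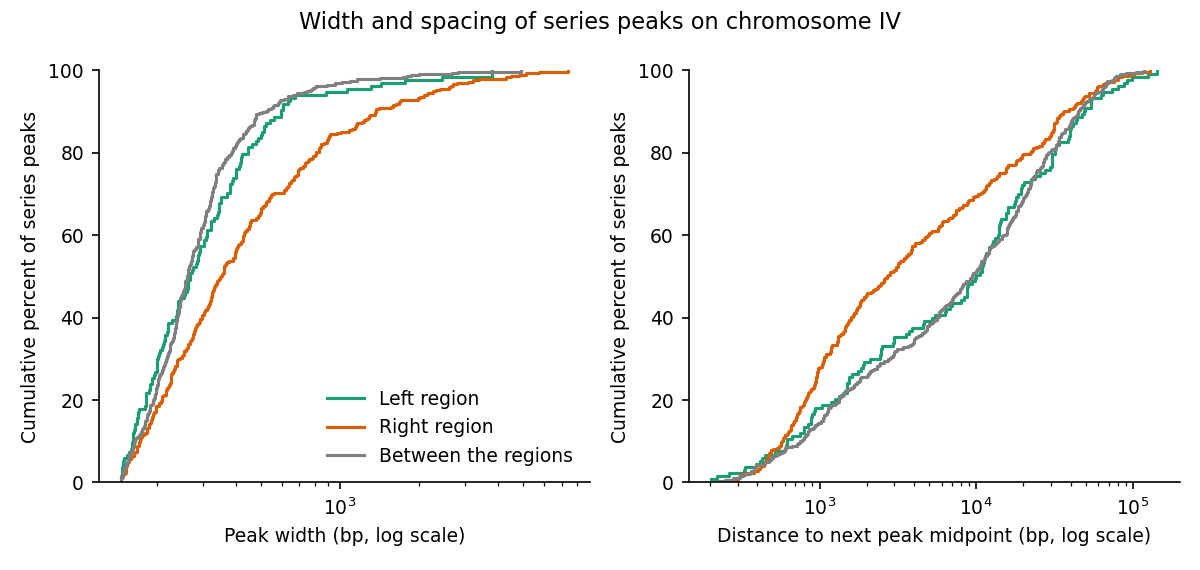
Cumulative percent of series peaks (y axis) against peak width and against the distance to the next midpoint (x axes, bp, log scale) for the left region, the right region and the part between. The right-region curve lies apart from the others, with a median width of 350 bp and a median spacing of 2709 bp, while the left region follows the part between.

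Closely spaced peaks were also counted as runs. Series peaks were joined when less than 2000 bp lay between the end of a peak and the start of the next. The 297 peaks of the right region then became 142 joined intervals (38.4 per Mb). The 134 of the left region became 91 (36.4 per Mb), and the 381 between the regions 275 (42.3 per Mb). Counted in this way, the right region was no denser than the middle, and no interval was computed for the difference. Of the right-region peaks, 70.4% belonged to a run of at least a pair, against 46.3% in the left region and 44.1% between. On IV to the left of the regions 75.1% did. The largest run of the right region had 23 peaks at chrIV:16286644-16321170, and the next had 15 at chrIV:16324230-16349749. Together they spanned 63.1 kb with 38 peaks, 9 of them wider than 1500 bp, covering 75.5% of that stretch and making up 24.3% of the summed peak width of the right region. Neither replicate list had a peak anywhere in that stretch. The nearest replicate 1 peaks lay 21.4 kb to its left and 32.3 kb to its right, and the nearest replicate 2 peaks 115.7 and 32.2 kb away. Without this stretch, chosen after its values were seen, the right region had 71.2 series peaks per Mb. On IV to the left of the regions, a run of 15 peaks at chrIV:2576046-2597167 also met no peak in either replicate list.

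Runs in the left region were shorter. The largest had 8 peaks at chrIV:6005673-6010707, with scores from 1.37 to 16.94, and met 1 replicate 1 peak and no replicate 2 peak. A run of 6 peaks at chrIV:4715828-4725860 reached a score of 83.59 and met 3 replicate 1 and 5 replicate 2 peaks. Another of 6 at chrIV:6343728-6354314 met none in either. Between the regions, the largest run had 12 low-scoring peaks (at most 5.76) at chrIV:8572500-8581712, where replicate 1 had 4 peaks and replicate 2 none.

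The next question was which members recurred in the ChIP replicates, where a peak was called found when it overlapped by at least 1 bp. In the left region 31 of 134 series peaks overlapped a peak in both replicates (23.1%, Wilson interval 16.8 to 31.0). In the right region 27 of 297 did (9.09%, interval 6.32 to 12.9), and between the regions 96 of 381 (25.2%, interval 21.1 to 29.8). The share over the whole series list was 15.2%, so the left region and the middle lay above it and the right region below it. Per Mb, such peaks numbered 12.4 in the left region and 7.30 in the right, against 14.8 between them. How the series list was made, beyond the caller named, is not stated. It may share reads with the replicate lists, so these overlaps are no independent support for a site.

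Most right-region members had no replicate peak at all. They numbered 187 of 297 (63.0%, interval 57.3 to 68.3), against 29 of 134 (21.6%, interval 15.5 to 29.4) in the left region and 62 of 381 (16.3%, interval 12.9 to 20.3) between, where the background of the whole list is 54.7%. A replicate 2 peak alone was met by 69 left-region members (51.5%), 61 right-region members (20.5%) and 193 peaks between the regions (50.7%), with a background of 26.7%. A replicate 1 peak alone was met by 5 (3.73%), 22 (7.41%) and 30 (7.87%), with a background of 3.4%.

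**Figure D3:**
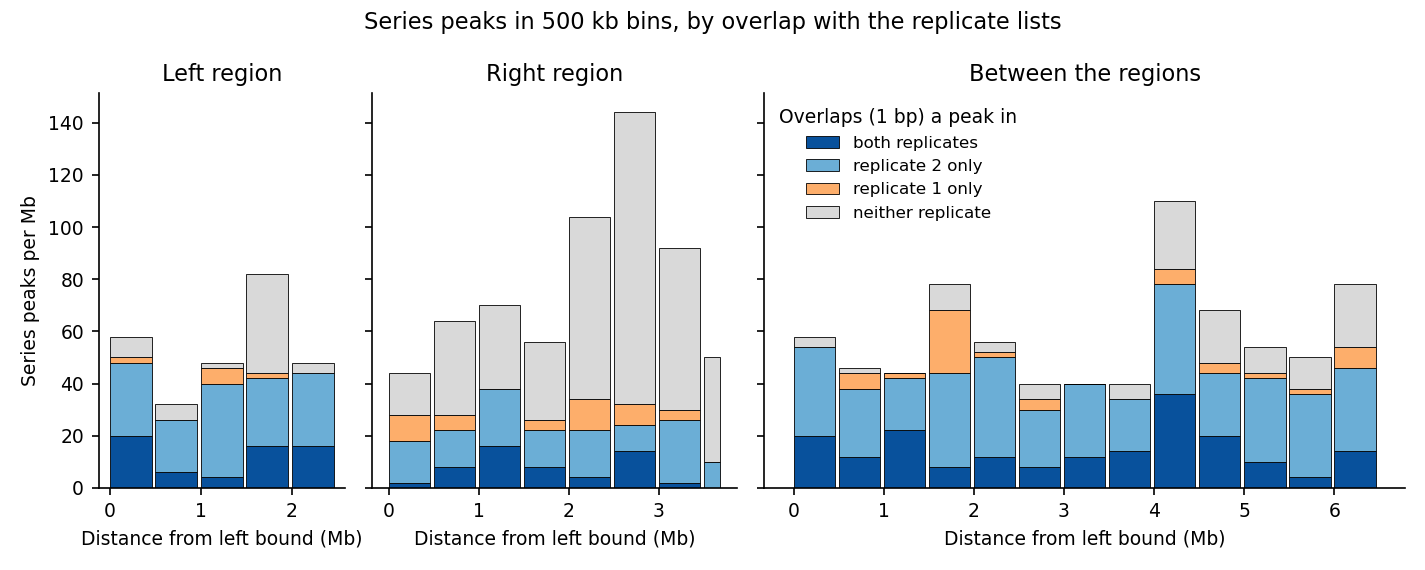
Series peaks per Mb (y axis) in bins of 500 kb by distance from the left bound of each stretch (x axis, Mb; the last bin of the right region is 0.2 Mb long), divided by the replicate lists a peak overlaps. In the right region the grey share without a replicate peak is between 36.4% and 80% of a bin, and the bin at 2.5 Mb from the left bound holds 56 such peaks of 72.

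The share without a replicate peak in the right region ran from 36.4% in its first bin to 77.8% from 16.0 to 16.5 Mb, with 8 of 10 peaks in the last 0.2 Mb, so it lay both below and above the 54.7% of the whole list. Between the regions it ran from 0% to 30.8%, so no bin there reached the lowest of the right region. In the left region 4 bins lay between 4.17% and 18.8%, and the bin from 6.0 to 6.5 Mb, with 19 of 41 peaks (46.3%), stood apart. Among full bins of the right region, the share found in both replicates was highest from 14.5 to 15.0 Mb (8 of 35, 22.9%) and lowest from 16.5 Mb on (1 of 46, 2.17%).

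Recurrence was also counted within classes of width and score. Among right-region peaks of 201 to 400 bp, 56 of 112 had no replicate peak (50.0%, interval 40.9 to 59.1), against 12 of 61 (19.7%, 11.6 to 31.3) in the left region and 28 of 224 (12.5%, 8.79 to 17.5) between the regions, where the whole series list had 40.3%. Of peaks up to 200 bp wide, 39 of 55 (70.9%) had none in the right region, 5 of 38 (13.2%) in the left and 23 of 87 (26.4%) between, where the whole list had 62.3%. Above 1500 bp it was 20 of 27 in the right region (74.1%, interval 55.3 to 86.8), which covers the 79.8% of the whole list. It was 2 of 4 in the left region and 1 of 7 between. At 401 to 800 bp it was 66.2% in the right region (54.3 to 76.3), against 56.1% of the whole list. In the left region it was 8 of 27 (29.6%) and between the regions 9 of 55 (16.4%). At 801 to 1500 bp it was 77.1% (61.0 to 87.9) in the right region, against 79.8% of the whole list. There it was 2 of 4 in the left region and 1 of 8 between. In the highest-scoring 25% of the series list, 14 of 63 right-region peaks (22.2%, interval 13.7 to 33.9) were found in both replicates, against 18 of 45 (40.0%, 27.0 to 54.5) in the left region and 37 of 90 (41.1%, 31.5 to 51.4) between. The share over the whole list in that score class was 31.8%, inside the interval of the right region. In the same class 25 right-region peaks had no replicate peak (39.7%), against 3 in the left region (6.67%), 1 between (1.11%) and 29.2% of the whole list.

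Seen from the replicate lists, the right region differed in one direction of the comparison. Of the 88 replicate 1 peaks there, 33 overlapped a replicate 2 peak (37.5%, interval 28.1 to 47.9). In the left region 33 of 56 did (58.9%, 45.9 to 70.8) and between the regions 117 of 177 (66.1%, 58.9 to 72.7), while the background over all replicate 1 peaks was 62.5%. Replicate 2 also had fewer peaks per Mb in the right region (28.6, against 46.4 in the left and 50.8 between). The share was not adjusted for this, so it is not separate from that lower density. In the other direction the stretches were alike within their intervals. Of the replicate 2 peaks, 32 of 106 in the right region (30.2%, 22.3 to 39.5), 32 of 116 in the left (27.6%, 20.3 to 36.3) and 110 of 330 between (33.3%, 28.5 to 38.6) overlapped a replicate 1 peak, with a background of 34.9%. Replicate 1 peaks of the right region that were not found in replicate 2 numbered 14.9 per Mb, against 9.20 in the left region and 9.23 between. The part of IV to the left of the regions had 13.1 per Mb, so a value near that of the right region was not particular to it.

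**Figure D4:**
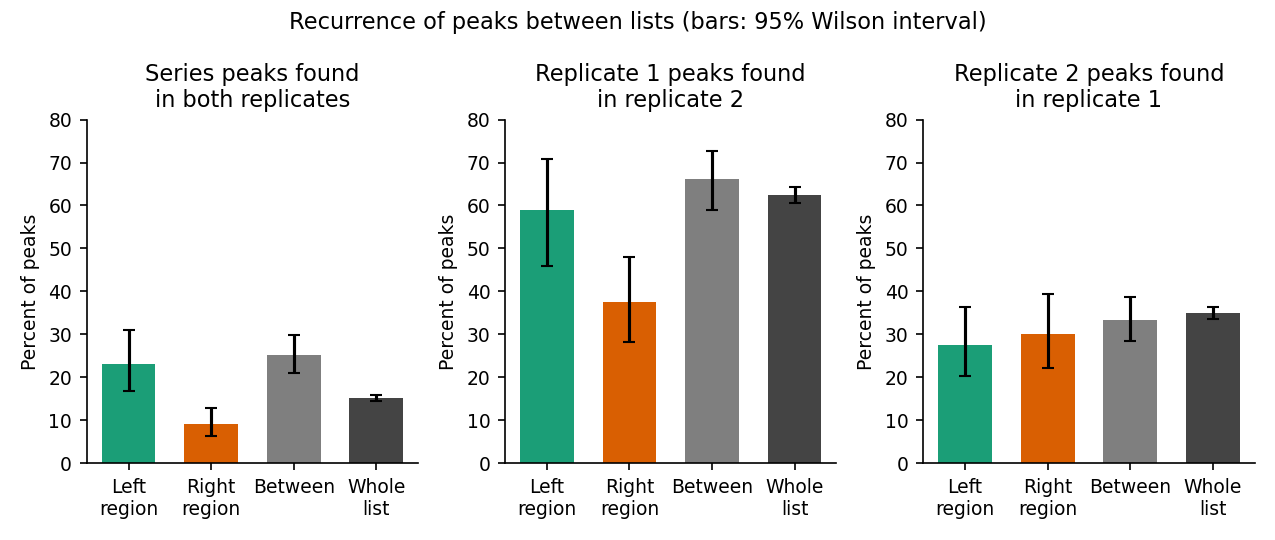
Percent of peaks (y axis) found in both replicates for series peaks, and in the other replicate for replicate 1 and replicate 2 peaks, in the left region, the right region, the part between and the whole list; error bars are 95% Wilson intervals. The right region is lowest for series peaks (9.09%) and for replicate 1 peaks (37.5%), and the bars for replicate 2 peaks have overlapping intervals.

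The series list held similar shares of the replicate peaks in all 3 stretches. It contained 85 of 106 replicate 2 peaks of the right region (80.2%), 93 of 116 of the left (80.2%) and 264 of 330 between (80%), against a background of 83%. For replicate 1 the counts were 49 of 88 (55.7%, interval 45.3 to 65.6), 36 of 56 (64.3%, 51.2 to 75.5) and 111 of 177 (62.7%, 55.4 to 69.5), against a background of 65.2%.

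Deposited scores are the authors' own value for each peak on a scale no header names, so they were used as ranks within a list. The score percentile is the percent of peaks in the same list with a lower score. Members were of middling score, with a median percentile of 52.1 (interval 45.2 to 61.6) in the left region, 46.0 (41.0 to 53.3) in the right and 54.2 (48.0 to 58.2) between. In the highest-scoring 10% of the series list lay 17 left-region peaks (12.7%, interval 8.07 to 19.4) and 31 right-region peaks (10.4%, 7.45 to 14.4), against 24 peaks between the regions (6.30%, 4.27 to 9.20). The whole list has 10% there by definition, so the right region was near it and the middle lay below it. In the highest 10% of the replicate 2 list lay 13 of 116 left-region peaks (11.2%, interval 6.67 to 18.2). There were 13 of 106 in the right region (12.3%, 7.31 to 19.9), against 17 of 330 between (5.15%, 3.24 to 8.09). In both lists the interval of each region overlapped that of the middle. In replicate 1 the share was largest between the regions, with 6 of 56 in the left (10.7%) and 7 of 88 in the right (7.95%), against 25 of 177 between (14.1%), and all these intervals overlapped.

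Members found in both replicates scored higher than the rest. Their median percentile was 83.1 in the left region, 75.2 in the right and 65.4 between, and that of peaks found in neither replicate was 32.3, 36.0 and 21.5. Of peaks without a replicate peak, 8 of the 187 in the right region (4.28%) and 1 of 29 in the left (3.45%) were in the highest 10% of the list, against 0 of 62 between and 3.59% over the whole list. Scores of overlapping peaks were compared as a description only, since the pairs may share reads and are not independent. Between the series list and replicate 2, Spearman's rho was 0.65 over 100 pairs in the left region, 0.74 over 88 in the right and 0.51 over 289 between. Between the series list and replicate 1 it was 0.33 over 38 pairs and 0.30 over 50 in the left and right regions, and -0.27 over 132 between. A peak can enter several pairs. Between the regions, the replicate 1 peak at chrIV:8578187-8581958 (rank 12) met 6 series peaks, the highest with a score of 2.82. The negative value may thus rest partly on few sites, which was not tested.

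The highest-scoring members of the left region recurred in both replicates. The first was at chrIV:6756311-6756823, with a series score of 115.16 (rank 31 of 9630), and it met peaks ranked 515 among the 2698 of replicate 1 and 87 among the 4580 of replicate 2. The second, at chrIV:4749829-4750329 (score 113.1, rank 34), met a replicate 2 peak of rank 149 but only a low replicate 1 peak of rank 2186, 127 bp wide. The third, at chrIV:5209286-5209806 (score 111.69, rank 35), met the peaks of rank 224 in replicate 1 and 56 in replicate 2, and this replicate 2 peak was the highest of the region. These 3 were between 501 and 521 bp wide, above the upper quartile of the region. The fourth, at chrIV:4717053-4720851 (score 83.59, rank 96), was also the second widest of the region with 3799 bp. The fifth was at chrIV:4727876-4728226 (score 73.2, rank 141). The widest member of the left region, at chrIV:6343728-6347540 with 3813 bp (score 25.41), met no replicate peak, and the third widest, at chrIV:4559819-4562271 with 2453 bp, met replicate 1 only.

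In the right region 3 of the 5 highest-scoring members were found in replicate 2 alone. These were at chrIV:16946692-16947117 (score 110.73, rank 36), chrIV:16865476-16865843 (score 91.83, rank 71) and chrIV:14464074-14464498 (score 73.2, rank 141), and they overlapped replicate 2 peaks of rank 132, 226 and 487. The second, at chrIV:14767615-14768035 (score 99.9, rank 46), was found in both, at rank 335 in replicate 1 and 140 in replicate 2. The fourth, at chrIV:15646346-15647176 (score 85.58, rank 91), overlapped the peaks of rank 11 in replicate 1 and rank 3 in replicate 2. The 3 widest members were 7376, 5749 and 5123 bp long, at chrIV:16338240-16345615, chrIV:16313072-16318820 and chrIV:16289946-16295068. All 3 lay in the stretch of the large runs and met no replicate peak, with scores of 37.47, 49.84 and 19.55.

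The strongest replicate peaks were set beside what they overlapped by the score percentile within each list, since ranks of lists of unequal length are not comparable. The peak at chrIV:14032566-14034532 in replicate 1 and at chrIV:14032395-14034921 in replicate 2 carried a score of 3100 in each, at percentiles 99.9 and 99.7. Other peaks of each list share exactly this score, so the equal values do not measure equal strength. The highest series peak there had a score of 32.66, at percentile 90.4. The third-ranked replicate 2 peak of the region, at chrIV:16491410-16492940 (percentile 98.5), met a replicate 1 peak at percentile 97.1 and a series peak at percentile 91.1. Other strong replicate 1 peaks had no counterpart: one of 4763 bp at chrIV:14210727-14215489 (percentile 97.7) in the right region, and 2 neighbours in the left region at chrIV:4923801-4924724 (percentile 94.4) and chrIV:4926083-4927008 (percentile 93.4), overlapped nothing in replicate 2 or in the series list. The replicate 1 peak at chrIV:4784745-4785044 (percentile 93.6) overlapped a replicate 2 peak at percentile 41.5 and a series peak at percentile 65.1.

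Long stretches without a series peak occurred in both regions. In the left region the longest were 142.9 kb at chrIV:5394965-5537819, 124.8 kb at chrIV:5209807-5334590 and 98.6 kb at chrIV:6649079-6747693. In the right region they were 127.0 kb at chrIV:15344337-15471356, 114.6 kb at chrIV:13522047-13636692 and 101.8 kb at chrIV:14661528-14763298. Between the regions they measured 116.4, 104.1 and 90.3 kb, a similar range. Most held replicate peaks. In the order given, those of the left region held 1, 2 and 0 replicate 1 peaks and 2, 3 and 2 replicate 2 peaks, and those of the right region 3, 1 and 2 replicate 1 peaks and 2, 2 and 1 replicate 2 peaks. Between the regions they held 4, 0 and 0 replicate 1 peaks and 6, 0 and 2 replicate 2 peaks.

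Scores next to the bounds were as follows, as a description. At the left bound of the left region the outermost member, at chrIV:4513458-4513801, had a score of 29.26, and the nearest peak outside, at chrIV:4470002-4470175, 6.34. At its right bound the scores were 6.4 inside (chrIV:6988246-6988445) and 28.33 outside (chrIV:7016476-7016922). For the right region they were 6.98 inside (chrIV:13502855-13503251) and 4.37 outside (chrIV:13461150-13461295) at the left bound, and 5.9 inside (chrIV:17177969-17178231) and 13.87 outside (chrIV:17215167-17215375) at the right bound.

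The right region lies in the right arm of IV and the left region near the centre, so each was compared with the window at the same relative position of the 5 other chromosomes. The right region had 80.3 series peaks per Mb, within the range of the other windows, which ran from 60.9 on X to 249.1 on I with 2 of 5 below IV. In replicate 2 it had 28.6 peaks per Mb, and only V was lower (21.0), the others reaching 57.6. Set against the middle window of the same chromosome, the series log2 ratio was 0.45 on IV, against -0.01 on III, 0.44 on X, 0.95 on II, 1.46 on I and 1.90 on V. The replicate 2 ratio was -0.83 on IV, against -1.01 on V, -0.42 on I, -0.35 on II, -0.29 on III and 0.11 on X. Close spacing and wide peaks were found in other matched windows too. The median spacing was 2709 bp on IV, against 1501.5 bp on I, 2172.75 bp on V, 2613.25 bp on II, 8335.5 bp on X and 8580.25 bp on III. The median width was 350 bp on IV, against 294 to 523 bp elsewhere, with I (360.5 bp) and V (523 bp) above IV. The share of right-region series peaks found in both replicates, 9.09%, lay between 4.32% and 29.8% in the other windows, with 2 of 5 lower. The share of replicate 1 peaks found in replicate 2 was 37.5% on IV and from 37.7% to 70.1% elsewhere, so IV and the lowest other chromosome were practically level.

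**Figure D5:**
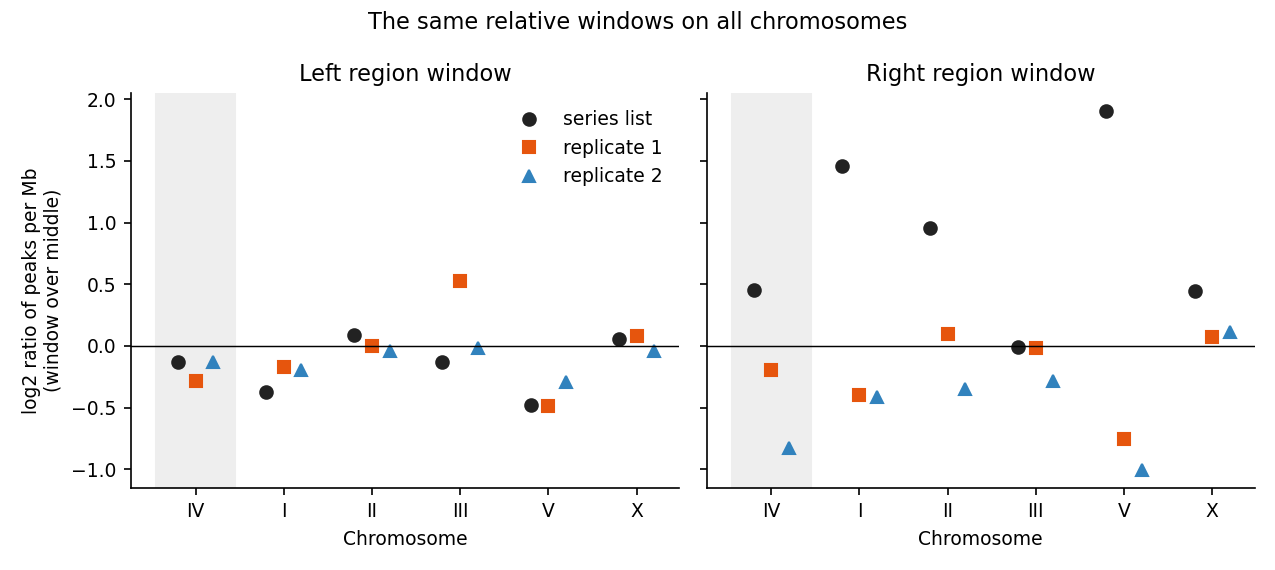
Log2 ratio of peaks per Mb (y axis) in the window matched to the left or right region over the middle window, for each chromosome (x axis, IV shaded) and each list. On IV the right region has 0.45 in the series list and -0.83 in replicate 2; V, I and II show a wider gap between these lists, and the left-region ratios of IV lie between -0.28 and -0.13.

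The left region likewise stayed within the range of its matched windows for density in all lists. Its 53.6 series peaks per Mb compared with 40.1 to 70.1 elsewhere, its 22.4 replicate 1 peaks with 18.7 to 43.7, and its 46.4 replicate 2 peaks with 34.5 to 69.6. Its share of replicate 2 peaks found in replicate 1, 27.6%, was just below the lowest of the other windows (28.2%). On the same chromosome, the 4.5 Mb to the left of the regions, which include the left arm, were like the right region in some measures and not in others. Of the right-region series peaks, 63.0% overlapped no replicate peak, against 65.7% of the 594 to the left (interval 61.7 to 69.4), and the share wider than 1500 bp was 9.09% in both. The right region had 80.3 series peaks per Mb, against 132 to the left, and 28.6 replicate 2 peaks per Mb, against 46.9. Of the replicate 1 peaks, 37.5% of those in the right region overlapped a replicate 2 peak (interval 28.1 to 47.9), against 58.5% of those to the left (50.2 to 66.2), and these intervals did not overlap. The median spacing of series peaks was 2709 bp in the right region and 2086.5 bp to the left, and runs held 70.4% and 75.1% of the peaks.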

How the data were processed

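The 3 deposited peak lists comprise 1 for each of the 2 ChIP replicates and 1 for the whole series. Per the file headers, coordinates are of WormBase WS220, and the source columns name MACS in the replicate lists and MACS v2 in the series list. The submitters' processing notes name BWA and ce10. Thresholds, control and pooling were not given in the sources used here. A single deposited score per peak, the authors' own, was used only for ranks. The lists hold no read counts, so depth is unknown. Samples were grouped by their titles.

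Overlaps, densities, widths, spacings and intervals were computed in Python (3.11.15) using the packages pandas (2.3.3), numpy (2.4.6) and scipy (1.17.1), and checked on simulated lists. IV was taken to end at the largest peak coordinate, 17493019, and covered length counted all peaks of a stretch. Matched windows were scaled to chromosome lengths found likewise. Peaks named are the 5 highest-scoring and 3 widest members of each region, the 3 highest of each replicate list, those next to the bounds, and the extreme bins and longest empty stretches; runs of peaks were picked with their values in view. The regions and comparisons were chosen with earlier results of these data known.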

Additional observations from a re-analysis of the deposited data

How the results depend on the processing

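Of 39 repeats under other settings, 20 stayed within the interval of the reported value, 14 moved beyond it and 5 changed sign. All 5 changes of sign concern the density of the right region. Its log2 ratio of 0.45 became -0.14 with peaks under 2000 bp apart joined, -0.20 in replicate 1 and -0.83 in replicate 2. In repeats chosen after seeing the data, it became -1.02 in series peaks found in both replicates and -0.022 without chrIV:15500001-17000000. That stretch holds the densest bins, so a lower value follows by construction. The interval of the replicate 1 ratio (-0.58 to 0.18) included an even density, and that of replicate 2 (-1.16 to -0.51) did not. No interval was computed for the other ratios, so -0.14 and -0.022 were not told from an even density. The left-region ratio stayed between -0.28 and -0.13. The share of members with a peak in both replicates moved to 12.7% in the left region and 5.39% in the right at a 50% reciprocal overlap (9.45% between the regions), and to 32.9% and 14.5% in series peaks at or above the median score (32.7% between). With only replicate 1 required, the share was 26.9% in the left region and 16.5% in the right (33.1% between). With only replicate 2 required, it was 74.6% and 29.6% (75.9% between). At or above the median score the median width was 344.5 bp in the left region and 638.5 bp in the right (307.5 bp between), and the median spacing 18608.5 and 9495.5 bp (19231 bp between). After joining, the spacing was 16558.5 and 17602 bp (17519.5 bp between). The median score percentile of right-region peaks up to 1000 bp wide was 38.3. Moving the bounds 250 kb inwards moved no value beyond its interval. No paired analysis was possible because the results come from no test and the input libraries, which share replicate numbers with the ChIP libraries, were not analysed here.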
